A study of Saccharomyces cerevisiae with 48 samples.

Results

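The data described here are the replication times of 10 meiotic gene loci in budding yeast, *IME1*, *IME4*, *RIM4*, *SPO11*, *SPO13*, *HOP1*, *ZIP1*, *REC8*, *DMC1* and *SMK1*, out of 5798 protein-coding genes measured in the same way. Each locus was the set of 1-kb bins with a midpoint within 5 kb of the midpoint of the gene in the R64 assembly, which gave 10 bins for every locus. All 10 loci were measured in all 4 strains. *RIM4* and *SPO11* lie 5.84 kb apart on Chr VIII and share 4 of their 10 bins, so they are not separate measurements.

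The DNA sequenced came from synchronous cultures of 4 strains, which were *SSDDCS* ARS1008∆ ARS1009∆, its *sml1∆* ARS1008∆ ARS1009∆ counterpart, *SSDDCS* ARS816∆ ARS818∆ and its *sml1∆* ARS816∆ ARS818∆ counterpart. All 4 strains are MATa W303 and lack *SML1*, an inhibitor of ribonucleotide reductase. They share the markers ade2-1 and ura3-1, with trp1-1, his3-11, 15 and leu2-3, 112, and also carry can1-100 and rad5-535. According to the labels the deletion is marked with HphNT (HphMX in the methods) in the *SSDDCS* strains and with URA3 in the strains without *SSDDCS*, which are called *sml1∆* below. The *SSDDCS* strains also carry Sld2, Sld3, Dpb11, Dbf4, Cdc45 and Sld7, replication initiation factors that are limiting in number, under the galactose-inducible GAL1-10 promoter at leu2, his3 and trp1, with the Sld3 and Dbf4 constructs labelled SLD3-A and Dbf4-A. ARS1008 and ARS1009 neighbor *IME2* on Chr X and ARS816 and ARS818 neighbor *NDT80* on Chr VIII. None of the 10 loci is close to them, with *IME1* 383 kb from *IME2* and, on Chr VIII, *SPO13* 225 kb and *RIM4* and *SPO11* still further from *NDT80*. ARS818∆ is marked with KanMX according to the methods. Cells grown in raffinose were arrested in G1 with alpha factor, given galactose for 30 min to induce *SSDDCS* and then released in galactose, and 1 G1 sample and 11 timepoints between 5 and 60 min were taken per strain. Each strain gave a single time course, so differences between strains have no replicate check and no test was made. The strains with intact origins were not analysed here.

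The values are ratios of reads at a timepoint to reads in G1, so an unreplicated locus is near 1 and a replicated locus is near 2. The replication time (Trep) of a bin is the time in min after release at which a fitted curve passes a ratio of 1.5. The Trep of a locus is the mean over its 10 bins, and its SD is over those neighboring bins, which are not replicates. Depth is unknown, since the files hold no read counts.

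Replication of a yeast chromosome starts at origins, where the origin recognition complex binds an AT-rich sequence, and forks then move out to replicate the neighboring genes passively. The time at which a gene is copied is therefore set by its distance to active origins and by when these fire. The 10 genes act in meiosis, the program in which diploid yeast makes haploid spores. In the mitotic cycle many early meiotic genes are kept silent through URS1, a promoter element bound by the repressor Ume6. The cultures here were in the mitotic cycle.

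The annotated origins nearest to the loci are shown first because 3 of the loci lie next to one. *DMC1* is 0.721 kb from ARS522, *SPO11* is 0.774 kb from ARS805 and *SPO13* is 1 kb from ARS807, measured between midpoints, whereas *HOP1* is 12.8 kb from ARS901. The sequences are those of the R64 reference assembly (RefSeq, strain S288C), plus strand, at chrV:549566-549814 for ARS522, chrVIII:64296-64371 for ARS805, chrVIII:133438-133539 for ARS807 and chrIX:214624-214754 for ARS901. Capitals mark an exact match of the 11-base ARS consensus sequence, searched on both strands.
ARS522: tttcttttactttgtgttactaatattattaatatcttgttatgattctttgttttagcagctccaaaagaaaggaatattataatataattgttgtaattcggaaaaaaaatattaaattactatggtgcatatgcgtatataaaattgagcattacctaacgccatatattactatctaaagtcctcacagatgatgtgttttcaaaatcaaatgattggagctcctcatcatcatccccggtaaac
ARS805: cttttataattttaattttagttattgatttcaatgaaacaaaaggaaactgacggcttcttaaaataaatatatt
ARS807: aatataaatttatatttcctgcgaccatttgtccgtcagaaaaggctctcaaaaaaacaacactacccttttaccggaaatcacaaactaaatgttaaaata
ARS901: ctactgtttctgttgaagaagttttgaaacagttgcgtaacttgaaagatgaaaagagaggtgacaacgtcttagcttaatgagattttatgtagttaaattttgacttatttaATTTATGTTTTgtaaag

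An exact match was found in 1 of the 9 distinct origins nearest to the loci, which was ARS901, against 124 of all 352 annotated origins (35.2%). The letters of ARS522, ARS805 and ARS807 hold no exact match in the annotated span, which says nothing about binding of the complex. The remaining loci are further from an annotated origin, with *REC8* 5.18 kb from ARS1634, *RIM4* 6.61 kb from ARS805, *IME1* 7.95 kb from ARS1019, *ZIP1* 17 kb from ARS430, *SMK1* 17.6 kb from ARS1624 and *IME4* 20.1 kb from ARS707.

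The URS1 core, GGCGGC on either strand, was searched in the 300 bases before the annotated start of each gene, since it is the known element of early meiotic promoters. It was present in 8 of the 10 genes and in 312 of 6001 protein-coding genes (5.20%), and in 16 of the 46 genes of a further meiotic list (34.8%). The 30-base windows below are from R64 and read toward the gene, with the core, or its reverse complement GCCGCC, in capitals. They are shown for the regulator *RIM4* and for the recombination, axis, synapsis, cohesion and division genes.
RIM4, chrVIII:56355-56384, plus strand: gcttaacgtttcGGCGGCtgtgatcaagga
DMC1, chrV:548271-548300, plus strand: gaccggaaaataGCCGCCcaaggataaact
HOP1, chrIX:226419-226448, plus strand: gtttttaacctgGGCGGCtaaattgtactt
ZIP1, chrIV:1032404-1032433, plus strand: taaaataccctcGGCGGCtaaatttttaga
REC8, chrXVI:571545-571574, minus strand: gaacttgacttcGGCGGCaaaccaatatat
SPO13, chrVIII:131940-131969, plus strand: tattgagaaataGCCGCCgacaaaaaggaa

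The core also occurs in the windows before *IME4* and *SMK1*. It was not found in the 300 bases before *IME1* and *SPO11*. A match describes these letters only.

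All 10 loci had an earlier Trep with *SSDDCS* than with *sml1∆* in both origin deletion backgrounds. The same direction was seen in 97.5% of all genes in the ars1008∆ ars1009∆ strains and in 97.8% in the ars816∆ ars818∆ strains, so it is not particular to the loci. The median over the 10 loci was 15.8 min in the *SSDDCS* strain and 18.4 min in the *sml1∆* strain of the ars1008∆ ars1009∆ background, and 20.2 min with *SSDDCS* and 22.9 min with *sml1∆* in the ars816∆ ars818∆ background. The median difference (*SSDDCS* minus *sml1∆* throughout) over the loci was -3.56 min and -2.31 min in these backgrounds, against -5.46 min and -4.26 min over all genes. The genome-wide shift, taken as the median difference over all bins, was -5.50 min in the ars1008∆ ars1009∆ pair and -4.18 min in the ars816∆ ars818∆ pair. Below, the centred difference is the difference minus this shift. A positive value means that the locus was advanced by less than the genome.

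**Figure D1:**
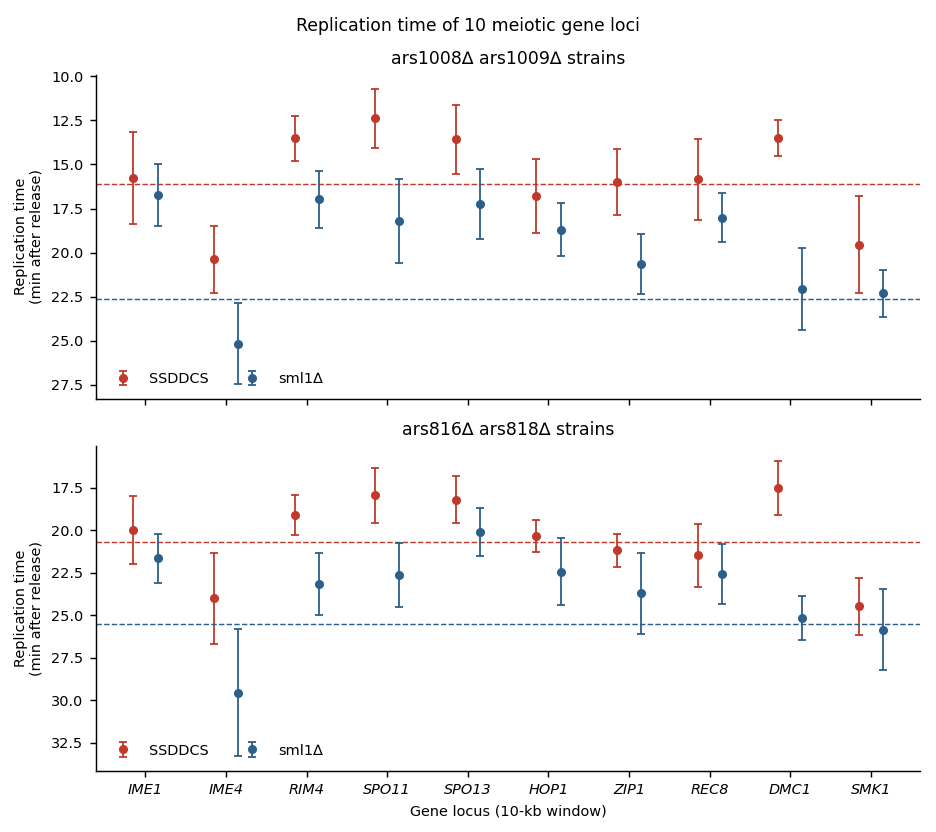
Replication time (min after release, early at the top) of the 10 loci in *SSDDCS* (red, left of each pair) and *sml1∆* (blue, right), with the ars1008∆ ars1009∆ strains above and the ars816∆ ars818∆ strains below. Points are means over 10 bins, bars are SD over bins and dashed lines are the median over all genes, which was 16.1 min with *SSDDCS* and 22.6 min with *sml1∆* above, and 20.7 min with *SSDDCS* and 25.5 min with *sml1∆* below. The 2 values of *DMC1* stand furthest apart, and *IME4* is later than the median of all genes in every strain.

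Among the 3 regulators of meiotic entry and translation, *IME4* was later than *IME1* and *RIM4* in all 4 strains. *IME1*, the transcriptional activator that starts meiosis, lies at chrX:604569-605651. It replicated at 15.8 ± 2.62 min with *SSDDCS* and 16.7 ± 1.75 min with *sml1∆* in the ars1008∆ ars1009∆ background. In the ars816∆ ars818∆ background its Trep was 20.0 ± 1.98 min with *SSDDCS* and 21.7 ± 1.44 min with *sml1∆* (SD, n = 10 bins each). The difference of -0.97 ± 3.06 min was the smallest of the 10 loci in the ars1008∆ ars1009∆ background, and the other was -1.68 ± 1.91 min. Both are smaller than the spread over bins, and single bins of the *SSDDCS* and *sml1∆* strains overlap. Of the 10 bins, 6 were earlier with *SSDDCS* in the first background and 8 in the other. The centred differences were 4.53 and 2.5 min. The size of the first difference depends on the bins used. Over the alternatives it ran from -3.07 min, with the bins that overlap the gene, to -0.775 min, with an added G1 point.

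The ratios of *IME1* crossed between the strains. In the ars1008∆ ars1009∆ background its ratio at 10 min was 1.31 with *SSDDCS* and 1.11 with *sml1∆*, and at 15 min it was 1.5 with *SSDDCS* and 1.4 with *sml1∆*. At 20 min the order was turned, with 1.69 in the *SSDDCS* strain and 1.75 in the *sml1∆* strain, and the ratio stayed lower with *SSDDCS* at all 7 timepoints from 25 to 60 min. In the ars816∆ ars818∆ background the ratio at 20 min was 1.55 with *SSDDCS* and 1.39 with *sml1∆*, and at 30 min it was 1.85 with *SSDDCS* and 1.95 with *sml1∆*. From 25 to 60 min in that background the ratio was higher with *SSDDCS* at 1 of 7 timepoints. All timepoints of a strain are divided by the same G1 sample, so these counts are not of separate measurements. At the last timepoints the ratios of both strains were near 2, where they say little about replication time. The genome median was higher with *SSDDCS* at 10 of 11 timepoints in the first background and at 11 of 11 in the other. That median closely follows the flow cytometry value by which each sample was scaled, so it is not a separate observation.

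*IME4*, which encodes a methyltransferase that modifies adenosine in meiotic mRNA, lies at chrVII:142246-144048 and was the latest of the 10 loci in 3 of the 4 strains. It replicated at 20.4 ± 1.89 min with *SSDDCS* and 25.2 ± 2.31 min with *sml1∆* in the ars1008∆ ars1009∆ background, and at 24.0 ± 2.69 min with *SSDDCS* and 29.5 ± 3.72 min with *sml1∆* in the ars816∆ ars818∆ background. All 10 bins were earlier with *SSDDCS* in both backgrounds. The differences of -4.79 ± 2.28 and -5.53 ± 4.33 min were close to the genome-wide shift, with centred differences of 0.72 and -1.35 min. With bins within 2 kb the difference in the ars816∆ ars818∆ background was -8.52 min and the centred difference -4.34 min.

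*RIM4*, an RNA-binding protein that holds back translation of meiotic mRNAs, lies at chrVIII:56649-58790. Its Trep was 13.5 ± 1.27 min with *SSDDCS* and 17.0 ± 1.61 min with *sml1∆* in the ars1008∆ ars1009∆ background. In the ars816∆ ars818∆ background it was 19.1 ± 1.19 min with *SSDDCS* and 23.2 ± 1.81 min with *sml1∆*. The differences were -3.46 ± 2.23 and -4.06 ± 2.22 min, with centred differences of 2.05 and 0.12 min. Neither keeps its sign under all alternatives, with lowest values of -1.02 and -1.08 min with a linear map between strains.

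The loci of the recombination genes *SPO11* and *DMC1* were advanced by more than the median of the loci in both backgrounds, as were *IME4* and *ZIP1*. This does not describe recombination genes as a class. *SPO11* encodes the protein that makes the DNA double-strand breaks of meiosis, and lies at chrVIII:62961-64157 next to ARS805. It replicated at 12.4 ± 1.65 min with *SSDDCS* and 18.2 ± 2.37 min with *sml1∆* in the ars1008∆ ars1009∆ background, and at 18 ± 1.63 min with *SSDDCS* and 22.6 ± 1.87 min with *sml1∆* in the ars816∆ ars818∆ background. All 10 bins were earlier with *SSDDCS* in both pairs. The differences of -5.81 ± 3.30 and -4.69 ± 2.36 min lay within 1 min of the genome-wide shift, with centred differences of -0.31 and -0.51 min. ARS805 itself was at 12.4 min with *SSDDCS* and 19 min with *sml1∆* in the first background, and at 16.6 min with *SSDDCS* and 22 min with *sml1∆* in the other. The Trep of an origin is the mean over bins with a midpoint within 2 kb of its own midpoint. The 4 bins of ARS805 all lie in the *SPO11* window, so this is not a separate measurement.

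*DMC1* encodes the meiosis-specific recombinase that acts on these breaks, and lies at chrV:548421-549517, 27.9 kb from the chromosome end. It replicated at 13.5 ± 1.02 min with *SSDDCS* and 22.1 ± 2.31 min with *sml1∆* in the ars1008∆ ars1009∆ background, and at 17.5 ± 1.58 min with *SSDDCS* and 25.2 ± 1.31 min with *sml1∆* in the ars816∆ ars818∆ background. The differences of -8.57 ± 1.84 and -7.67 ± 2.10 min had the largest size among the 10 loci in both pairs, and the centred differences were -3.07 and -3.49 min. The latest *SSDDCS* bin was at 15.8 min and the earliest *sml1∆* bin at 17.6 min in the first background, and these were 19.8 min and 23.7 min in the other. *DMC1* was the only one of the 10 loci whose bins did not overlap between the strains, which was the case for 29.7% of all genes in the first background and 23.6% in the other.

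The ratio at *DMC1* in the ars1008∆ ars1009∆ background was 1.34, 1.59, 1.81 and 1.91 with *SSDDCS* at 10, 15, 20 and 25 min, against 1.13, 1.29, 1.45 and 1.65 with *sml1∆*. In the ars816∆ ars818∆ background it was 1.11, 1.36, 1.68 and 1.85 with *SSDDCS* at these times, against 1.00, 1.08, 1.27 and 1.51 with *sml1∆*. At 20 min the ratio with *SSDDCS* was above the genome median of its sample in both backgrounds, where that median was 1.67 and 1.5, whereas with *sml1∆* it was near the genome medians of 1.44 and 1.28. ARS522, next to the gene, had a Trep of 13 min with *SSDDCS* and 22.5 min with *sml1∆* in the first background, and of 16.7 min with *SSDDCS* and 24.3 min with *sml1∆* in the other. Its 4 bins all lie in the *DMC1* window, so this is not a separate measurement. *DMC1* also belongs to the 433 genes that lie 20 to 50 kb from a chromosome end, whose median difference was -8.94 min in the first background and -7.11 min in the other, so *DMC1* was close to the median of such genes.

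**Figure D2:**
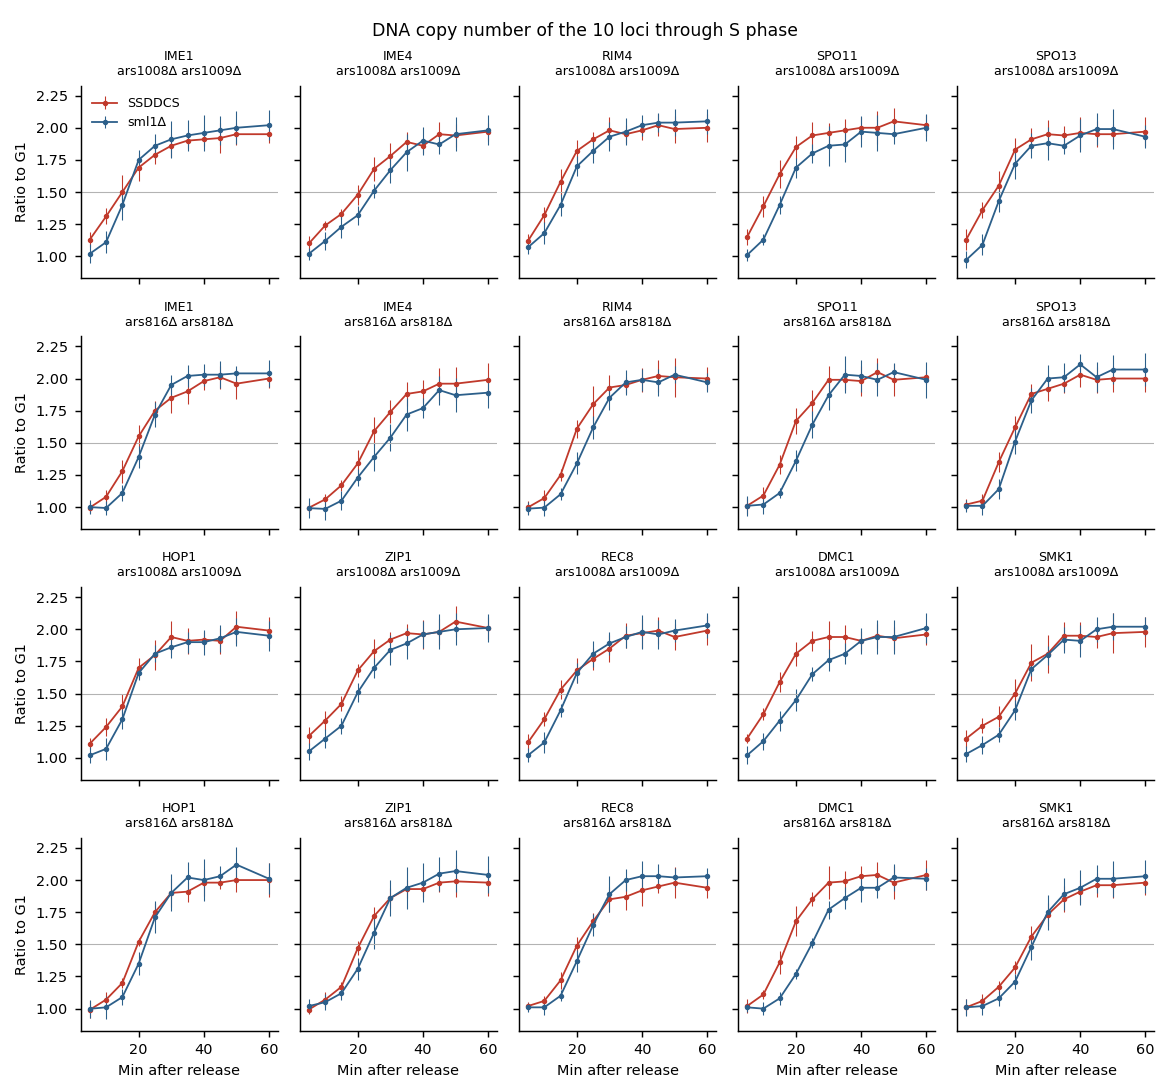
Mean ratio to G1 (y axis, 1 before and 2 after replication) against min after release for the 10 loci in *SSDDCS* (red) and *sml1∆* (blue), with both origin deletion backgrounds below each other. Bars are SD over 10 bins and the grey line is 1.5. The curves lie apart at *DMC1*, with 1.81 with *SSDDCS* and 1.45 with *sml1∆* at 20 min in the ars1008∆ ars1009∆ background, and cross at *IME1*, with 1.69 with *SSDDCS* and 1.75 with *sml1∆* at the same time.

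*HOP1*, *REC8* and *ZIP1*, the loci of axis, cohesion and synapsis genes, were each advanced by less than the genome-wide shift in both backgrounds. Of all genes, 42.5% were behind the shift in both. *ZIP1* in the ars1008∆ ars1009∆ background was not behind it with a narrower window. This describes these single loci and not the classes of genes. *HOP1*, an axis protein, lies at chrIX:226602-228419 and replicated at 16.8 ± 2.09 min with *SSDDCS* and 18.7 ± 1.5 min with *sml1∆* in the ars1008∆ ars1009∆ background. In the ars816∆ ars818∆ background its Trep was 20.4 ± 0.94 min with *SSDDCS* and 22.5 ± 1.97 min with *sml1∆*. The differences were -1.93 ± 2.56 and -2.10 ± 1.72 min, and the centred differences 3.58 and 2.08 min.

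*REC8*, the meiotic subunit of cohesin, lies at chrXVI:569336-571378 and 14.3 kb from the centromere of Chr XVI. It replicated at 15.9 ± 2.31 min with *SSDDCS* and 18 ± 1.39 min with *sml1∆* in the ars1008∆ ars1009∆ background, and at 21.5 ± 1.85 min with *SSDDCS* and 22.6 ± 1.77 min with *sml1∆* in the ars816∆ ars818∆ background. The differences of -2.16 ± 2.99 and -1.12 ± 2.68 min were smaller than the spread over bins, and the centred differences were 3.34 and 3.05 min. With the bins that overlap the gene alone, the differences were 0.0674 and 0.241 min. The ratio at *REC8* was higher with *SSDDCS* at all 4 timepoints up to 20 min in both backgrounds. It was higher at 2 of the 7 later timepoints in the first background and at 1 of 7 in the other. These timepoints share the G1 sample of their strain, so they are not separate measurements.

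*ZIP1*, the central component of the synaptonemal complex, lies at chrIV:1032436-1035063. Its Trep was 16 ± 1.88 min with *SSDDCS* and 20.7 ± 1.71 min with *sml1∆* in the ars1008∆ ars1009∆ background, and 21.2 ± 0.97 min with *SSDDCS* and 23.7 ± 2.38 min with *sml1∆* in the ars816∆ ars818∆ background. The differences were -4.66 ± 3.43 and -2.52 ± 2.44 min, and the centred differences 0.84 and 1.66 min. The first was -1.14 min with bins within 2 kb.

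Of the genes of the meiotic divisions and spore formation, *SPO13* was earlier than *SMK1* in all 4 strains. *SPO13*, a regulator that keeps sister chromatids together in the first meiotic division, lies at chrVIII:132047-132922 next to ARS807. It replicated at 13.6 ± 1.96 min with *SSDDCS* and 17.2 ± 1.96 min with *sml1∆* in the ars1008∆ ars1009∆ background, and at 18.2 ± 1.38 min with *SSDDCS* and 20.1 ± 1.41 min with *sml1∆* in the ars816∆ ars818∆ background. The differences were -3.66 ± 2.27 and -1.89 ± 2.38 min, with centred differences of 1.84 and 2.29 min. With the bins that overlap the gene alone the second difference was 0.396 min, and with a linear map between strains the centred differences were -1.06 and -0.671 min. *SPO13* was the earliest of the 10 loci in the *sml1∆* ars816∆ ars818∆ strain.

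*SMK1*, a mitogen-activated protein kinase needed for the spore wall, lies at chrXVI:666280-667446. It replicated at 19.6 ± 2.75 min with *SSDDCS* and 22.3 ± 1.34 min with *sml1∆* in the ars1008∆ ars1009∆ background, and at 24.5 ± 1.69 min with *SSDDCS* and 25.8 ± 2.39 min with *sml1∆* in the ars816∆ ars818∆ background, where with *SSDDCS* it was the latest of the loci. The differences were -2.74 ± 2.14 and -1.36 ± 2.62 min, and the centred differences 2.76 and 2.81 min.

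Set against a threshold of 2 min, 8 of the 10 loci were earlier with *SSDDCS* in the ars1008∆ ars1009∆ background, where 86.2% of all genes were, and *IME1* and *HOP1* were not. In the ars816∆ ars818∆ background 6 of 10 were earlier by more than 2 min, against 80.1% of all genes, and *IME1*, *SPO13*, *REC8* and *SMK1* were not. *DMC1* alone was ahead of the genome-wide shift by more than 2 min in each background, where 32.4% and 28.0% of all genes were, and in both, as were 23.5%. Loci advanced by less than the shift numbered 8 of 10 in the first background and 7 of 10 in the other, against 50.4% and 48.9% of all genes. *IME1*, *RIM4*, *SPO13*, *HOP1*, *ZIP1*, *REC8* and *SMK1* were behind it in both backgrounds, as were 42.5% of all genes. Of these, *RIM4* and *SPO13* in both backgrounds and *ZIP1* in the first were ahead of it under 1 or more of the alternatives. Of the loci, 5 were behind by more than 2 min in each background, where 27.9% and 22.2% of all genes were, and *IME1*, *HOP1*, *REC8* and *SMK1* were among them in both.

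**Figure D3:**
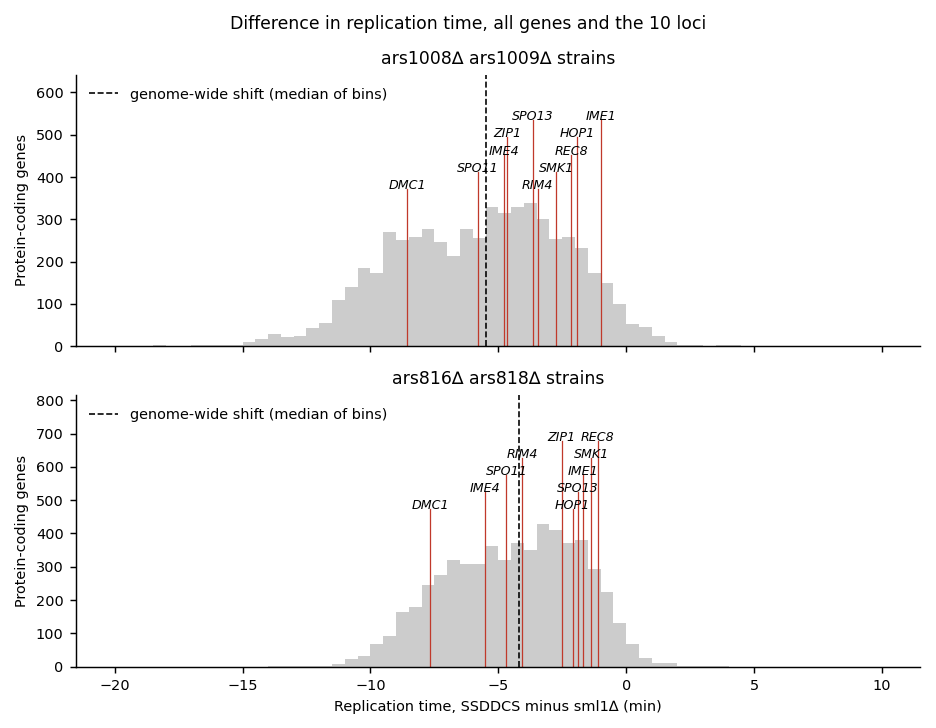
Number of protein-coding genes (y axis) by difference in replication time, *SSDDCS* minus *sml1∆* (x axis, min, in steps of 0.5 min), with the ars1008∆ ars1009∆ strains above and the ars816∆ ars818∆ strains below. Red lines mark the 10 loci and dashed lines the genome-wide shift of -5.50 min above and -4.18 min below. *DMC1* lies left of the dashed line and *IME1*, *HOP1*, *REC8* and *SMK1* right of it in both panels.

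The smaller advance of most loci appeared as a later rank among genes. Rank is given as the percentage of all genes that replicated earlier in the same strain. The median rank of the loci was 46.9% with *SSDDCS* and 19.5% with *sml1∆* in the ars1008∆ ars1009∆ background, and 43.0% with *SSDDCS* and 23.4% with *sml1∆* in the ars816∆ ars818∆ background. Of the 10 loci, 7 with *SSDDCS* and 9 with *sml1∆* replicated earlier than the median gene in the first background, and 6 with *SSDDCS* and 8 with *sml1∆* in the other. *IME1*, *SPO13*, *HOP1*, *ZIP1*, *REC8* and *SMK1* had a later rank with *SSDDCS* in both backgrounds, 6 of 10 against 43.2% of all genes.

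The largest later moves were those of *IME1*, *HOP1*, *REC8* and *SMK1*. *IME1* ranked at 46.4% with *SSDDCS* and 9.43% with *sml1∆* in the ars1008∆ ars1009∆ background, and at 40.0% with *SSDDCS* and 13.0% with *sml1∆* in the other. *HOP1* ranked at 57.0% with *SSDDCS* and 20.9% with *sml1∆* in the first background, and at 46.0% with *SSDDCS* and 19.2% with *sml1∆* in the other. In the same backgrounds *REC8* was at 47.4% with *SSDDCS* and 17.4% with *sml1∆*, and at 59.3% with *SSDDCS* and 20.2% with *sml1∆*. These 3 loci therefore were among the earliest 25% of genes only in the *sml1∆* strains. *SMK1* was at 79.0% with *SSDDCS* and 47.4% with *sml1∆*, and at 84.0% with *SSDDCS* and 53.4% with *sml1∆*.

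*DMC1* moved the other way, to 15.9% with *SSDDCS*, against 45.2% with *sml1∆*, in the ars1008∆ ars1009∆ background and to 3.36% with *SSDDCS*, against 46.2% with *sml1∆*, in the other. *SPO11* also had an earlier rank with *SSDDCS* in both, at 3.62% with *SSDDCS* and 18.1% with *sml1∆* in the first background and 7.78% with *SSDDCS* and 20.8% with *sml1∆* in the other. *IME4* stayed among the late genes in all 4 strains, at 84.0% with *SSDDCS* and 72.5% with *sml1∆* in the first background and 81.5% with *SSDDCS* and 83.9% with *sml1∆* in the other.

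**Figure D4:**
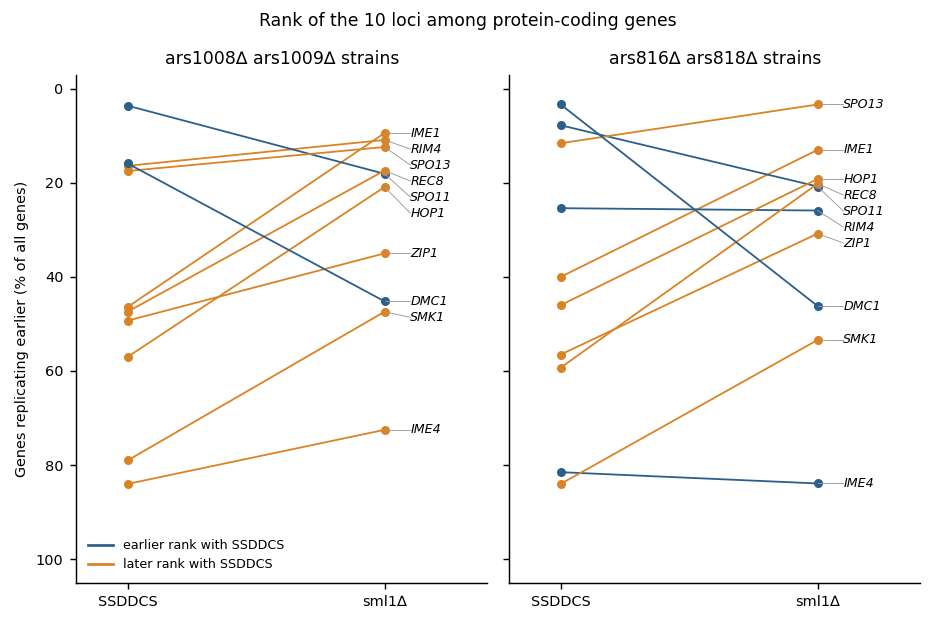
Rank of the 10 loci as the percentage of protein-coding genes that replicated earlier (y axis, early at the top) in the *SSDDCS* strain (left of each panel) and the *sml1∆* strain (right). Orange lines are loci with a later rank with *SSDDCS* and blue lines those with an earlier one. *DMC1* is at 15.9% with *SSDDCS* and 45.2% with *sml1∆* in the left panel and at 3.36% with *SSDDCS* and 46.2% with *sml1∆* in the right panel, and most other lines run the opposite way.

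The order of the loci in the 2 *SSDDCS* strains was alike, with *SPO11*, *DMC1*, *RIM4* and *SPO13* as the 4 earliest and *IME4* and *SMK1* as the 2 latest in both. Neighbors in these orders differed by less than the SD over their bins in most cases. In the 2 *sml1∆* strains *DMC1*, *SMK1* and *IME4* were the 3 latest, in that order, and *IME1* and *SPO13* were both among the 3 earliest.

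As the nearest measure of the spread between time courses, the strains of the same *SSDDCS* status were compared over 5686 genes at least 60 kb from *IME2* and *NDT80*. After removal of the median offset between the time courses, the SD over genes was 1.05 min for the *SSDDCS* strains and 1.39 min for the *sml1∆* strains. The loci ranged from -0.95 (*REC8*) to 1.07 min (*HOP1*) between the *SSDDCS* strains, within the range of -1.53 to 1.89 min that holds the genes between percentiles 5 and 95. Between the *sml1∆* strains they ranged from -2.68 (*RIM4*) to 0.65 min (*SPO13*), with *RIM4* below the range of -1.83 to 2.56 min. The *SSDDCS* effect itself differed between backgrounds with an SD of 1.66 min over genes, with percentiles 5 and 95 at -2.77 and 2.66 min. The centred differences of *DMC1*, *REC8* and *SMK1* lie outside this range in both backgrounds, those of *IME1* and *HOP1* in the first only, and those of the other loci in neither. Single alternatives brought *SMK1* and *DMC1* inside it. *SMK1* was at 1.57 min with bins that overlap the gene in the first background and at 2.16 min with bins within 2 kb in the other. *DMC1* was at -2.64 min without the 20 min timepoint in the first background, and with bins within 10 kb in the other. With a linear map between strains in place of the shift, the centred differences were 1.33 and 0.44 min for *IME1*, 1.55 and 0.48 min for *HOP1* and 0.90 and 1.52 min for *REC8*, all inside the range. That range is of differences between the backgrounds after removal of the shift. It is therefore only a rough scale for values of a single background and for the linear map.

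To set the loci beside genes of like replication time, all genes were put in 5 equal classes. Classes were made by the Trep in the *sml1∆* strain of the other background, so that the value that made the class is not part of the difference. The median difference in the ars1008∆ ars1009∆ background was -2.80 min in the earliest class of genes and -7.77 min in the latest, and in the ars816∆ ars818∆ background it was -2.13 and -6.55 min. *IME1*, *SPO13* and *HOP1* were in the earliest class in the first comparison and *IME1*, *RIM4*, *SPO11*, *SPO13* and *REC8* in the other. Set against the median of their own class, 6 of 10 loci in the first background and 7 of 10 in the other were advanced by less. A median splits the genes of a class evenly by definition, and these counts are near an even split. *RIM4* and *SPO11* also share bins. *SMK1* and *DMC1* were both in the middle class, whose median difference was -6.64 min in the first background and -5.03 min in the other, and stood on opposite sides of it, with -2.74 and -1.36 min for *SMK1* and -8.57 and -7.67 min for *DMC1*.

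The surroundings of the loci were examined in profiles smoothed over 5 bins. Within 30 kb of *HOP1* the earliest point was to the right of the gene with *SSDDCS*, at 19 kb in the ars1008∆ ars1009∆ background and 20.0 kb in the other, and to the left with *sml1∆*, at 13 kb and 7.01 kb. The earliest point around *ZIP1* likewise lay to the right with *SSDDCS*, at 24.8 and 22.8 kb, and to the left with *sml1∆*, at 24.2 and 26.2 kb. Near *IME1*, on the side of ARS1019, the earliest point had a Trep of 12.1 min with *SSDDCS* and 15.3 min with *sml1∆* in the first background and of 17.2 min with *SSDDCS* and 19.7 min with *sml1∆* in the other. In the first background these points were not at the same place, 10.4 kb from the gene with *SSDDCS* and 4.39 kb with *sml1∆*. The earliest points within 30 kb of *SMK1* were to the left, 27.4 kb away with *SSDDCS* and 28.4 kb away with *sml1∆* in the first background. In the other they were 29.4 kb and 27.4 kb to the left. They lie near the edge of the stretch searched, and ARS1623 is further left, outside it, so they need not be local peaks. Around *DMC1* the earliest point was to the right in every strain. It was 20.5 kb away with *SSDDCS* and 18.5 kb with *sml1∆* in the first background, and 1.53 kb and 19.5 kb in the other. ARS522 lies 0.721 kb and ARS523 20.7 kb to the right. Near *SPO13* it was 15 kb to the left in the *sml1∆* strain of the first background, and at most 4.02 kb away in the other strains.

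**Figure D5:**
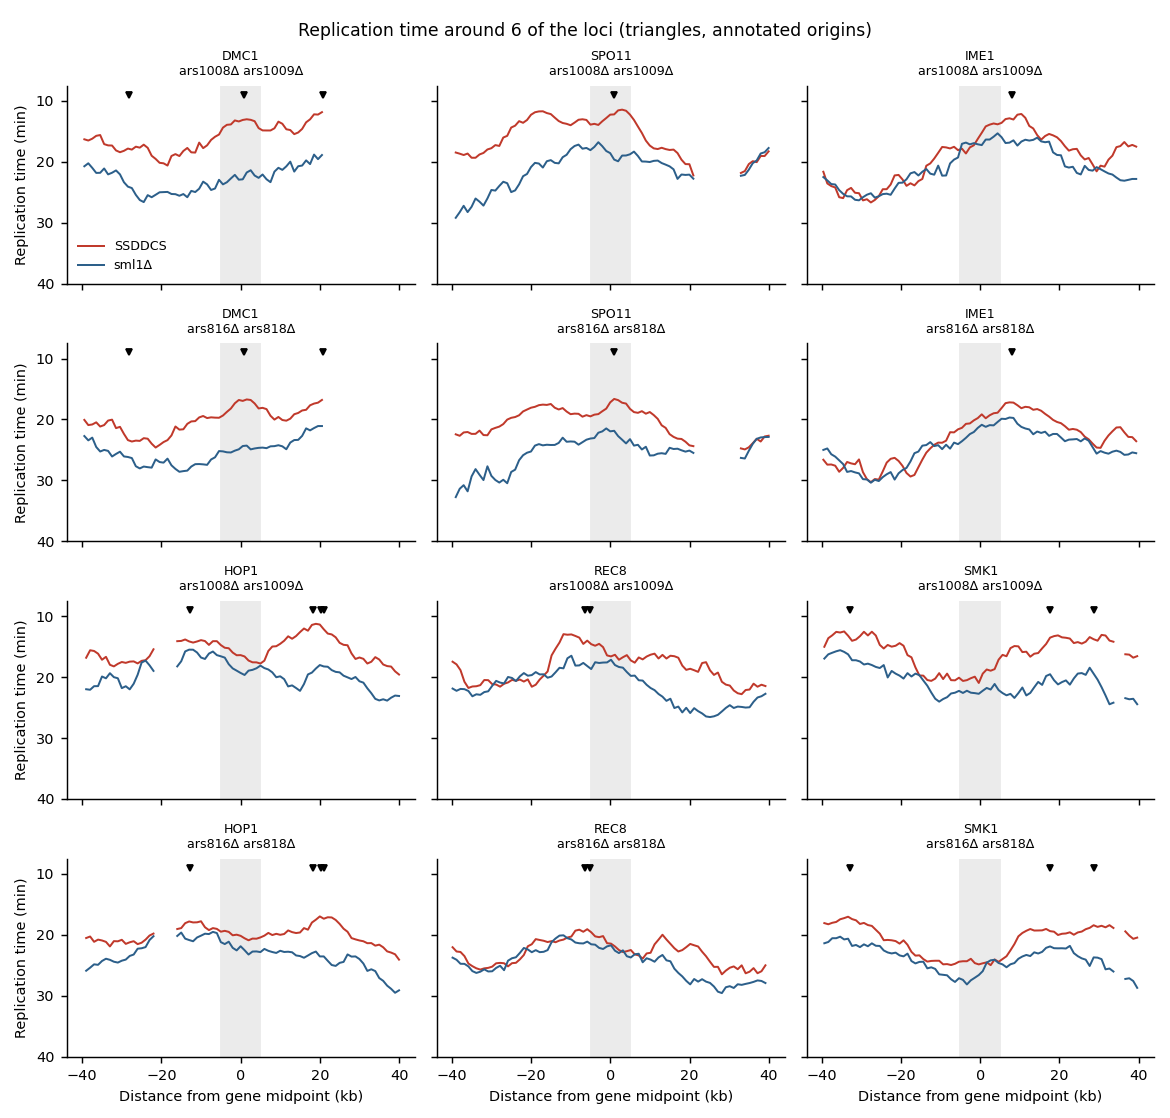
Smoothed replication time (y axis, min, early at the top) against distance from the gene midpoint (x axis, kb) for 6 loci in *SSDDCS* (red) and *sml1∆* (blue), with both backgrounds below each other. Triangles are annotated origins, the grey band is the 10-kb window and breaks are stretches with no bins. The curves are apart across the *DMC1* window, where the means are 13.5 min with *SSDDCS* and 22.1 min with *sml1∆* in the ars1008∆ ars1009∆ background, and close across the *IME1* window, at 15.8 min with *SSDDCS* and 16.7 min with *sml1∆*.

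The further list of 46 meiotic genes did not share the smaller advance, but it also replicated later than the loci without *SSDDCS*. Its median rank with *sml1∆* was 49.8% in the ars1008∆ ars1009∆ background and 54.1% in the other, against 19.5% and 23.4% for the 10 loci. The earliest class of genes above was likewise advanced by less than the latest. Whether this accounts for the contrast was not tested. The median difference of the list was -6.34 min in the ars1008∆ ars1009∆ background and -5.04 min in the other. Of its genes, 19 of 46 (41.3%) were behind the genome-wide shift in both, close to the share of all genes. The most advanced were *HFM1*, a helicase of crossover formation, with differences of -13.2 ± 4.29 and -9.35 ± 3.54 min, and *ZIP2*, which helps to start synapsis, with -11.1 ± 4.75 and -9.45 ± 3.79 min. Their windows share 6 of 10 bins, so they are not separate measurements, as is the case for 5 pairs of genes in the list. Both lie on Chr VII, 29.8 and 34.2 kb from its end, in the same belt near chromosome ends as *DMC1*. The least advanced were *SPO20*, a membrane fusion protein of spore formation, with 0.72 ± 4.02 and -0.48 ± 2.57 min, and *SPR28*, a septin of sporulation, with -1.48 ± 2.42 and -0.35 ± 3.63 min.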

How the data were processed

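The report rests on sequencing of genomic DNA in 48 samples, 12 per strain. The authors mapped reads to the sacCer3 (R64) genome and counted uniquely mapped reads per 1 kb. For each of 44 timepoint samples they deposited the timepoint over G1 ratio of every bin. The ratios were already multiplied by the replicated share of the genome from flow cytometry, on a scale from 1 to 2, and an error in it would displace all bins of a sample together. The submitters' processing notes name Bowtie2 2.3.4, SAMtools 1.7.2 and bedtools 2.26.0. Read counts were not used here, so no counting interval was computed.

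For each bin, a logistic rising between 1 and 2 was fitted where at least 6 values were present (Python 3.11.15, numpy 2.4.6, pandas 2.3.3), and Trep was the time at ratio 1.5. The authors fitted a sigmoid, whose equation is not given in the sources used here. The script was tested on simulated data. Genes needed at least 5 fitted bins, which 5798 of 6002 protein-coding genes had. The gene annotation, 352 origins and all sequences are those of RefSeq R64. The 10 loci, the further list and the 2 min threshold were chosen with earlier results of these data known. All 10 loci are named, and from the further list the 2 genes with the lowest and the 2 with the highest centred difference. Alternatives were other curves, bulk values, windows, thresholds, centrings and bin filters, removal of a GC trend, an added G1 point and leaving out each timepoint. Figures were drawn with matplotlib 3.10.9.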

Additional observations from a re-analysis of the deposited data

Results flagged for a closer look

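The centred difference of *IME4* was 0.72 min in the ars1008∆ ars1009∆ strains and -1.35 min in the ars816∆ ars818∆ strains, 2.07 min apart, so that the locus was behind the genome-wide shift in one pair and ahead of it in the other. This contrast depends on the processing. With a linear map between strains *IME4* was behind in both, at 2.55 and 1.1 min, and with bins that overlap the gene it was ahead in the ars1008∆ ars1009∆ strains, at -0.605 min. With bins within 2 kb it was further ahead in the ars816∆ ars818∆ strains, at -4.34 min. The difference between the pairs was not tested, since there is 1 time course per strain. It is near the SD of 1.66 min that the same quantity had over all genes compared.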

How the results depend on the processing

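No paired analysis was possible because each strain has 1 time course and the strains share a single replicate number. Of 440 differences recomputed, 437 were below 0 (earlier with *SSDDCS*), and the median over the loci kept its sign in all 44 recomputations. With the bins that overlap the gene alone, *REC8* had 0.0674 min in the ars1008∆ ars1009∆ background, and *REC8* and *SPO13* had 0.24 and 0.40 min in the other. The centred difference of *RIM4* in the ars1008∆ ars1009∆ background was -0.0486 min with bins within 10 kb, -0.0167 min with bins that overlap the gene and -1.02 min with a linear map between strains. That map also gave *SPO13* -0.67 min in the ars816∆ ars818∆ background and -1.06 min in the other. Loci ahead of the shift by the threshold numbered 2 in each background with the linear map, and 2 in the ars816∆ ars818∆ background with bins within 2 kb. With a threshold of 0 min they numbered 2 in the ars1008∆ ars1009∆ background and 3 in the ars816∆ ars818∆ background, where 50.4% and 48.9% of all genes were behind the shift. With 5 min they numbered 0 in both. With 5 min, 2 loci were earlier with *SSDDCS* in each background. These were *SPO11* and *DMC1* in the ars1008∆ ars1009∆ background and *IME4* and *DMC1* in the other. The median difference over all genes was -5.46 min in the ars1008∆ ars1009∆ background and -4.26 min in the other. Most genes therefore passed 5 min in the former, and most did not in the latter. With 0 min 10 loci were earlier in the ars816∆ ars818∆ background, as were 97.8% of all genes. No share of all genes is given for the other settings, so those counts cannot be read against one. The centred difference of *DMC1* stayed between -4.12 and -2.64 min in the ars1008∆ ars1009∆ background and between -4.96 and -2.64 min in the other over 24 alternatives. The causes of these changes were not tested. Depth is unknown, so counting error cannot be set apart from the spread over bins.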
